A study of Mus musculus with 4 samples.

Results

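The genes described here are Fermt1, which encodes kindlin-1, and the integrin subunit genes Itga1, Itga7 and Itgb8, examined by ATAC-seq in mouse fibroblasts. In this assay the Tn5 transposase inserts adapters into open chromatin, so the signal of a region tracks its accessibility. All regions carrying 1 of these 4 gene names in the deposited annotation were taken, which gave 3 of 5727 regions in the Kindlin-2 table and 3 of 28445 in the Rela table. The Kindlin-2 table held 1 region each for Fermt1, Itgb8 and Itga1 and none for Itga7, and the Rela table held single regions of Itga1, Itga7 and Itgb8 and none of Fermt1. The genes were chosen with these values known: Fermt1 and Itgb8 for a higher signal in the Kindlin-2 knockout, Itga1 and Itga7 for a lower signal in the Rela knockout. Those 4 differences are therefore descriptions. Itga1 in the Kindlin-2 pair and Itgb8 in the Rela pair played no part in that choice.

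The Kindlin-2 pair were kidney fibroblasts, labelled Kindlin-2 floxed (the control, which carries the floxed alleles) and Kindlin-2 K.O. The Rela pair were 3T3 cells, an established mouse embryo fibroblast line, labelled Rela wt and Rela K.O. All 4 cultures were labelled passages 15 to 20 and were grown in the same serum-containing medium. How the alleles were deleted, and whether each line was 1 clone or a pool, is not given in the sources used here. A genotype was represented by a single deposited column, in a normalized signal. The differences therefore have no replicate check, and no test between genotypes was possible.

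Integrins are receptors made of an alpha and a beta subunit that link the extracellular matrix to the actin cytoskeleton. Talin and the kindlins bind the tails of beta subunits and together switch integrins to their active state. Kindlin-2, the deleted protein of the first pair, is the widely expressed form, and kindlin-1 is known mainly from epithelia such as the epidermis. The subunit from Itga1 pairs with that of Itgb1 to form a collagen receptor. That from Itga7 also pairs with the Itgb1 subunit, in a laminin receptor best known from muscle. The subunit from Itgb8 pairs with that of Itgav in a receptor that activates latent TGF-beta. Rela encodes p65, a subunit of the transcription factor NF-kB. A signal at a promoter measures open chromatin, not the amount of transcript.

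RefSeq promoters (GRCm38.p6, the build also known as mm10) were matched for 3 of the 4 genes. The 250 bases before each start are shown because the regions lie at or beside them. All 3 genes are on the minus strand and each sequence reads 5′ to 3′ towards the start. Capitals mark bases inside the region of the Kindlin-2 table, to within 1 base.
Fermt1, chr2:132946037-132946286: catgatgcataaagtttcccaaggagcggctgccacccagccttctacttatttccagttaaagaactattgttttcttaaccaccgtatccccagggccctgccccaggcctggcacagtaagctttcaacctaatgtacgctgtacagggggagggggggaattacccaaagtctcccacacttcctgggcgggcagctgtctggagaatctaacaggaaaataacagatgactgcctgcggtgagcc
Itga1, chr13:115101965-115102214: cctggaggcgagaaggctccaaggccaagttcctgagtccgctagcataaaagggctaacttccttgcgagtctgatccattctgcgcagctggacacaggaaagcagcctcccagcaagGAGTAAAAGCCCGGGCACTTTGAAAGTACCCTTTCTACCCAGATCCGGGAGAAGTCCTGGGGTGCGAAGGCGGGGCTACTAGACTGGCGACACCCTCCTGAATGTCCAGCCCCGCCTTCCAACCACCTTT
Itgb8, chr12:119238277-119238526: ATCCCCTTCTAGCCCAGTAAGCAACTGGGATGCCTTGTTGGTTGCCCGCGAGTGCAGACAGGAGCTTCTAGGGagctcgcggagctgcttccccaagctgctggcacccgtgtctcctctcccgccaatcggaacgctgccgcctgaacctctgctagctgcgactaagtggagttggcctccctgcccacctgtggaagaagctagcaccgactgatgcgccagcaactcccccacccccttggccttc
In Itga1 the Kindlin-2 table's region took in the 130 bases next to the start, and in Itgb8 the 73 bases farthest from it, while the Rela table's regions covered all 250 bases of both. The tables place the Itgb8 start 526 bp upstream of the RefSeq one. By that start the whole Itgb8 window lies inside the gene. No base of the Fermt1 sequence lay in a region. The Fermt1 region began 107 bp downstream of the RefSeq start and lay wholly inside the gene. G and C made up 52.4% of the bases in Fermt1, 57.6% in Itga1 and 62.4% in Itgb8, against a median of 52.4% over 32817 promoters.

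Both strands of the 3 sequences were searched for 6 motifs. The TEAD motif was searched as GGAATG and the AP-1 motif as TGANTCA. The GC box was searched as GGGCGG, the box named CCAAT by those letters, and the NF-kB and SRF motifs by their usual consensus. Fermt1 held 1 GC box, 61 bases before the start, a motif present in 32.7% of all promoters. Itgb8 held 1 CCAAT box, 126 bases before the RefSeq start, as did 33.8% of all promoters at some position. Itga1 held no match to any of the 6. The NF-kB motif was in 7.25% of all promoters and in none of these 3. No match means only that these letters are absent from this window.

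The first comparison asks what loss of Kindlin-2 goes with in the chromatin of kidney fibroblasts. Among the kindlins, the region of Fermt1 held a normalized signal of 4 (floxed) and 28 (knockout). It spans 507 bp on chromosome 2 (132945422 to 132945929) with its centre 230 bp from the start given in the table. The knockout was 7-fold higher, with an exact 95% interval of 2.12 to 35.2 for counting error alone. On the log2 scale, with a pseudocount of 1, this was 2.54. The floxed value rests on about 2.94 implied counts, and the interval is correspondingly wide.

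Chromosome 2 as a whole had a median log2 ratio of 0.14, and after subtracting it Fermt1 had 2.39, a 5.25-fold difference. Subtracting the median of the 50 nearest regions instead left 2.33. Fermt1 had the 14th highest log2 ratio of 477 regions on chromosome 2. Of its 20 nearest regions, which spanned 4.61 Mb, 1 had a higher ratio than Fermt1 and 19 a lower one. Within 100 kb of the gene there were 2 other regions, at Crls1 (7 and 11) and Trmt6 (35 and 20), so only the Fermt1 region was past 2-fold there. Fermt1, picked for being higher, thus stood above most of its surroundings in this pair of libraries.

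Itgb8, the beta subunit of the receptor for latent TGF-beta, held 10 (floxed) and 31 (knockout) at a 402 bp region on chromosome 12 (119238453 to 119238855). The ratio was 3.1 (interval 1.41 to 8.75) and the log2 ratio 1.54. Here the whole chromosome differed in the same direction: its median log2 ratio was 0.55, and 32.7% of its 269 regions were up by 2-fold or more. After that median was subtracted Itgb8 had a log2 ratio of 0.993, just inside 2-fold, and with the 50 nearest regions it had 1.002, just past it. Its 11 flanking regions, 10 on 1 side and the only 1 on the other, all had lower ratios than Itgb8, between -0.56 and 1.37. The 2-fold call for Itgb8 therefore depends on how the chromosome-wide difference is handled.

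Itga1, the collagen receptor subunit, held 15 (floxed) and 17 (knockout) at a 277 bp region on chromosome 13 (115101817 to 115102094) that spans the start. Its ratio of 1.13 had an interval of 0.502 to 2.68, so a difference between the genotypes was not detectable at this depth. Centred on its chromosome, Itga1 had a log2 ratio of 0.08. A second promoter, that of Pelo, which lies inside the Itga1 gene, held 7 and 8.

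Among the 3 regions of these genes, 2 were thus at least 2-fold higher as deposited and 0 lower, where 16.2% of all regions in the table were higher and 9.27% lower. With chromosomes centred 1 was higher and 0 lower, against 14.7% and 8.21% of all regions. As the genes were picked on this contrast, nothing is read from these counts. Among regions assigned to a named gene within 2500 bp of its start, 8.26% passed 2-fold upward. That share varied with signal: in 4 equal groups of regions by mean signal, 39.8% of the weakest group and 2.79% of the strongest were higher, with 13.7% in the group of Fermt1 and 8.32% in that of Itgb8. Higher regions were 63.5% of all those past 2-fold as deposited, but 47.1% after loess scaling and 48.7% after quantile scaling. Both Fermt1 and Itgb8 remained past 2-fold under those scalings.

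**Figure D1:**
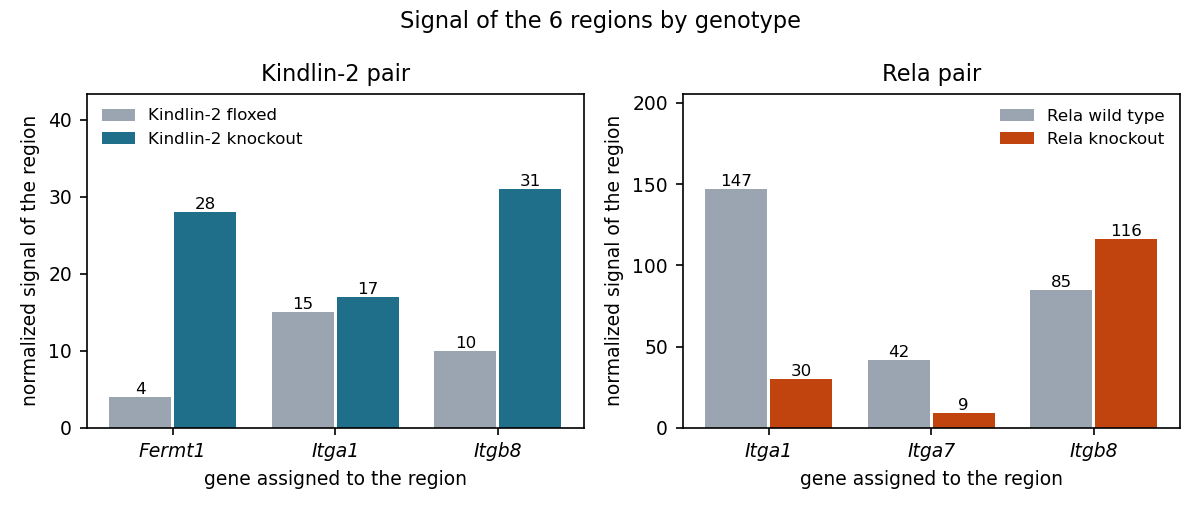
Normalized signal (vertical axis) of each region of Fermt1, Itga1, Itga7 and Itgb8, control in grey and knockout in colour, for the Kindlin-2 pair (left) and the Rela pair (right). Each bar is 1 deposited value, so there are no error bars, and heights are not comparable between the panels. Fermt1 and Itgb8 are higher in the Kindlin-2 knockout (4 and 28, 10 and 31), while Itga1 and Itga7 are lower in the Rela knockout (147 and 30, 42 and 9).

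The second comparison asks how accessibility differs between 3T3 cells with and without Rela. Itga1 held 147 (wild type) and 30 (knockout) at a 761 bp region on chromosome 13 (115101471 to 115102232), centred 112 bp from the start. The knockout was 4.9-fold lower (interval 3.32 to 7.25), a log2 ratio of -2.26. This wild-type value stood at the 95.4th percentile of all regions of the table, and the knockout value at the 43.5th. The regions of chromosome 13 had a median log2 ratio of -0.79, and 42.3% of its 1290 regions were down by 2-fold or more. Subtracting that median left -1.47 for Itga1, a 2.77-fold difference, and subtracting the local median left -1.71. Part of the Itga1 difference was thus shared with its chromosome, and Itga1 was past 2-fold beyond that. So were 20.1% of the regions of chromosome 13 once centred, and Itga1 had the 155th lowest log2 ratio of the 1290.

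The surroundings of Itga1 differed among themselves. All 20 of its flanking regions, the nearest 10 on each side, had higher ratios than Itga1, from -2.09 to 4.32. They spanned 2.23 Mb. The Pelo promoter, inside the gene and close to its start, held 121 and 103, a log2 ratio of -0.23. A region farther inside the gene (115005484 to 115005782), which the table assigns to no gene, went the other way with 20 and 52. Beyond the end of the gene, 11.8 kb away, an unassigned region held 147 and 40, a log2 ratio of -1.85. The region of Itga2, which encodes the alpha subunit of another collagen receptor and neighbours Itga1, held 42 and 51. Centred on the chromosome, Itga2 had a log2 ratio of 1.06 and Itga1 one of -1.47, so these adjacent collagen receptor genes lay on opposite sides of the median of their chromosome.

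Itga7, the laminin receptor subunit, held 42 (wild type) and 9 (knockout) at a 409 bp region on chromosome 10 (128931416 to 128931825). This region is outside the gene, with its centre 2192 bp before the start in the table and its nearer edge 1596 bp before the RefSeq start. The knockout was 4.67-fold lower (interval 2.41 to 11.2), a log2 ratio of -2.10. Chromosome 10 had a median log2 ratio of -0.58, with 35.9% of its 1480 regions at least 2-fold lower, and after subtraction Itga7 had -1.52, a 2.87-fold difference. Once centred, 19.4% of the regions of chromosome 10 were at least 2-fold lower, and Itga7 had the 161st lowest log2 ratio of the 1480. Of its 20 flanking regions, the nearest 10 on each side over 1.94 Mb, 19 had a higher ratio. Inside the gene an unassigned region held 28 and 21, and the Rdh5 region on its other side 171 and 217. The Itga7 difference was thus seen at 1 upstream region and was past 2-fold at no region inside the gene.

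Itgb8 held 85 (wild type) and 116 (knockout) at a 1071 bp region on chromosome 12 (119237950 to 119239021), which contains the whole region of the Kindlin-2 table. Its ratio was 1.36 (interval 1.06 to 1.77), within 2-fold, with a log2 ratio of 0.44 as deposited and 0.26 after the chromosome median was subtracted. An unassigned region inside the gene held 18 and 17. For Fermt1 the nearest region of any kind in the Rela table held 1 and 7. It lay 89.1 kb from the Fermt1 region, centre to centre, and 47.5 kb from the gene. No region was listed at Fermt1 in 3T3 cells, so no value of its accessibility is available there. For Itga7 the nearest region of the Kindlin-2 table was 8.47 kb from the Itga7 region, centre to centre, at Rdh5 (30 and 23).

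Of the 3 regions of these genes in the Rela table, 2 were at least 2-fold lower and 0 higher, both as deposited and with chromosomes centred. Of all regions, 21% of 28332 were lower and 22.4% higher as deposited, and 18.9% were lower and 21.2% higher once centred. The genes were picked on this contrast too, so the counts carry no weight. In the strongest of 4 equal groups by signal, which holds Itga1, 8.84% of regions were lower, and in the group of Itga7 25.2% were.

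**Figure D2:**
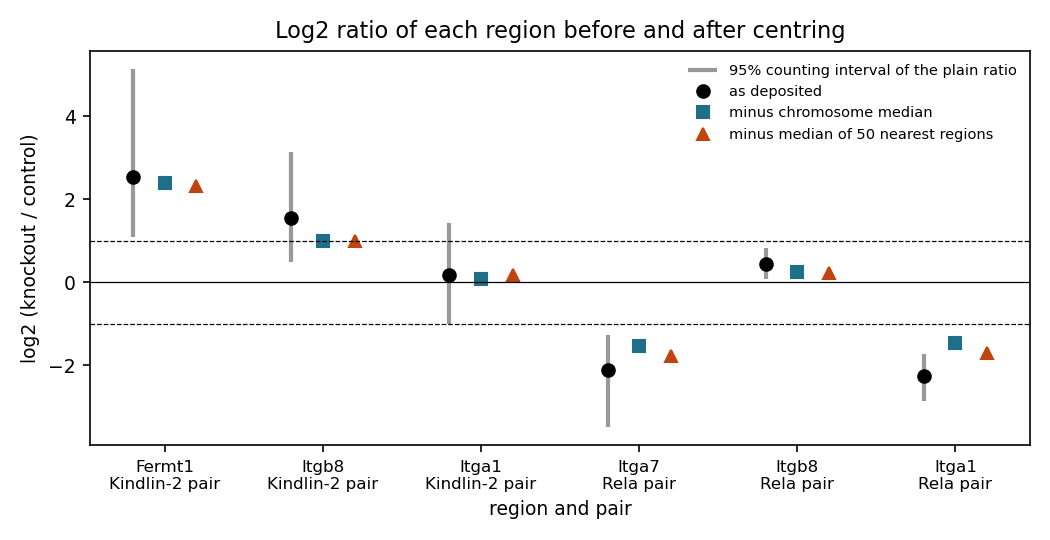
Log2 ratio of knockout over control (vertical axis) for the 6 regions, as deposited with a pseudocount of 1 (circles), minus the chromosome median (squares) and minus the median of the 50 nearest regions (triangles). Grey lines are 95% counting intervals of the plain ratio, and dashed lines mark a 2-fold difference. Fermt1 stays above 2-fold, Itgb8 of the Kindlin-2 pair drops to the line (0.993 and 1.002), and Itga7 and Itga1 of the Rela pair stay below -1 in each form.

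**Figure D3:**
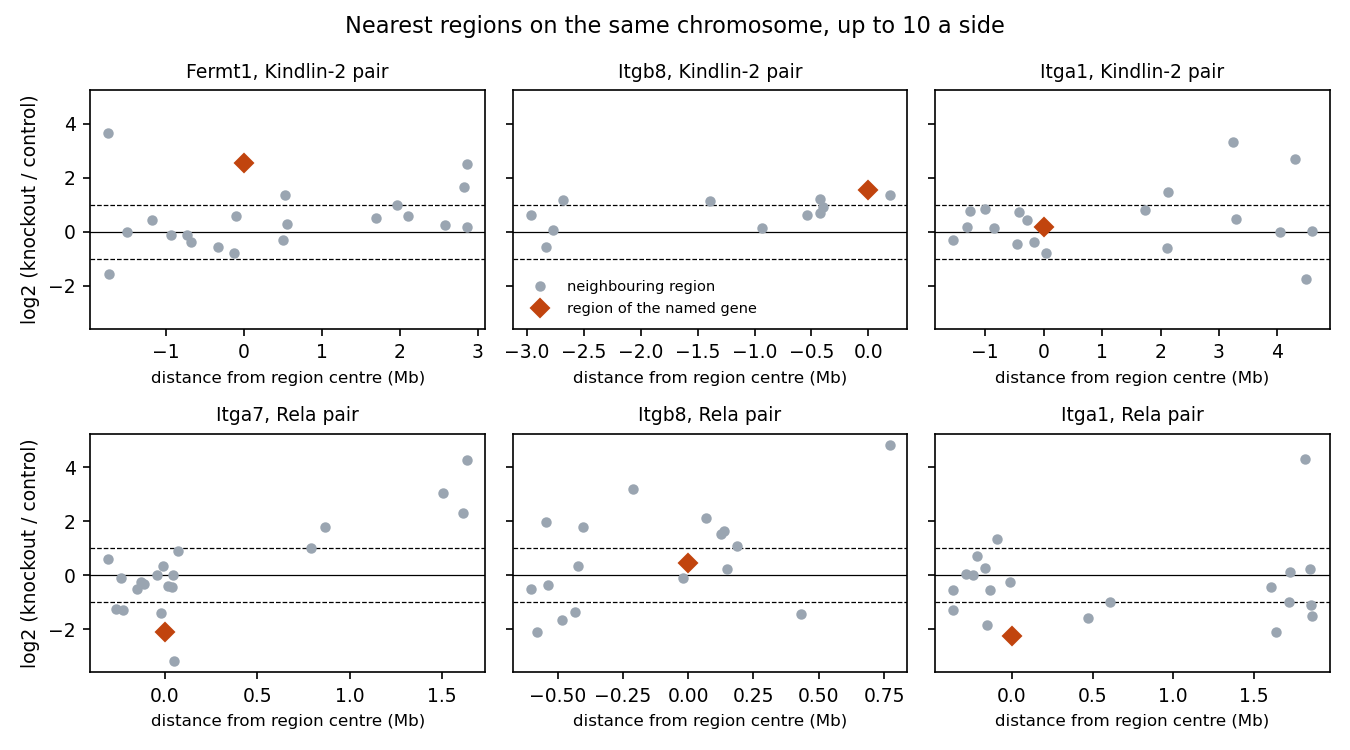
Log2 ratio (vertical axis) of up to 10 regions on each side (grey circles) against their distance in Mb from the region of the named gene (diamond), 1 panel per region. Fermt1 stands above 19 of its 20 neighbours in the Kindlin-2 pair and Itga1 below all 20 in the Rela pair, whereas Itga1 of the Kindlin-2 pair (0.17) and Itgb8 of the Rela pair (0.44) lie among theirs.

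Across the 29 kindlin and integrin subunit genes, the Kindlin-2 table had regions for no gene other than Fermt1, Itgb8 and Itga1, so the 25 remaining genes give no background there. Neither table assigned a region to Fermt2, the gene deleted in the first pair. An unassigned region inside Fermt2 (45492149 to 45492308 on chromosome 14) held 4 (floxed) and 5 (knockout), which cannot check the deletion. The Rela promoter held 21 (wild type) and 27 (knockout), which also does not check a deletion elsewhere in that gene.

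In the Rela table, regions were listed for 12 of the 29 genes, 14 in all, of which 3 were at least 2-fold lower and 0 higher, where 21% of all regions of the table were lower and 22.4% higher. Itga1 and Itga7 are among the lower regions and were picked for being lower, so nothing is read from that count. Leaving out Itga1, Itga7 and Itgb8, 1 of 11 regions was lower, that of Itgae, and the median log2 ratio was 0.25, against 0.00 over all regions. Itgae, which encodes the alpha subunit of a receptor for E-cadherin on lymphocytes, held 18 and 5 (ratio 0.278, interval 0.0801 to 0.707) at 2499 bp from its start. The regions nearest to a start among the fibronectin and vitronectin receptor genes were within 2-fold: Itgb1 at 172 bp held 47 and 79, and Itgav at 410 bp held 150 and 174. Itga5, whose product pairs with that of Itgb1 as a fibronectin receptor, held 305 and 383. Itgb1, which encodes the partner of both the Itga1 and the Itga7 subunit, thus had a higher deposited signal in the knockout (ratio 1.68, interval 1.20 to 2.33). Its log2 ratio of 0.74 was 0.13 after the chromosome median was subtracted and 0.75 after the local median was. The second Itgb1 region and those of Itgb2, Itgb5, Itgb7, Itga2b and the second of Itgav were also within 2-fold, with log2 ratios from -0.63 to 0.63.

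**Figure D4:**
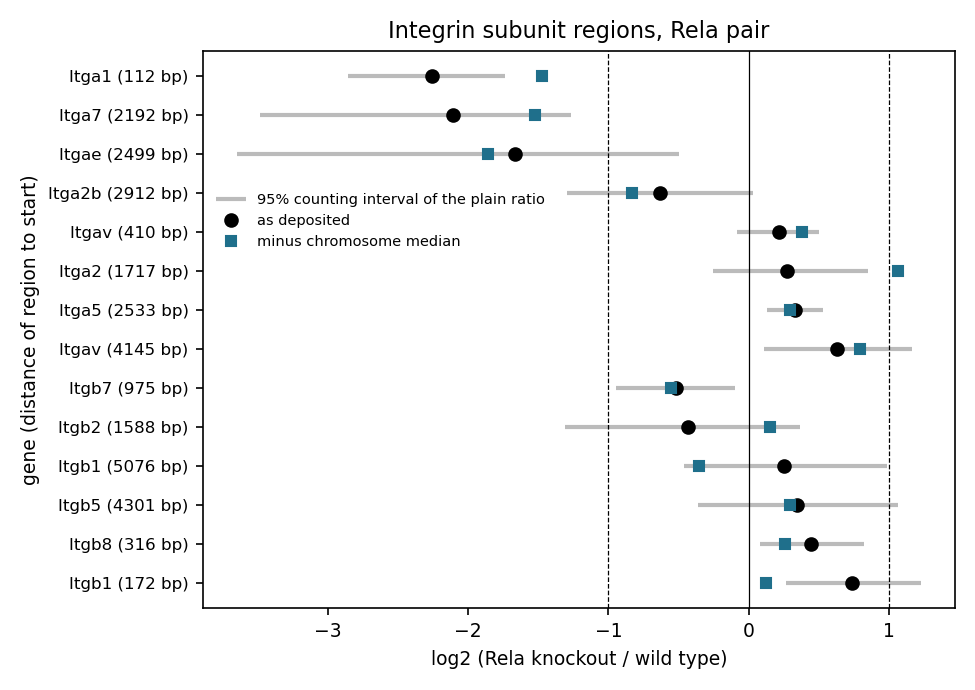
Log2 ratio of Rela knockout over wild type (horizontal axis) for the 14 integrin subunit regions, as deposited (circles) and minus the chromosome median (squares), with each region's distance to the start of its gene. Grey lines are 95% counting intervals of the plain ratio, and dashed lines mark 2-fold. Itga1, Itga7 and Itgae lie below -1, and Itga2 passes 1 only after the chromosome median is subtracted (1.06).

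Genes that act on or with integrins were described from lists of activators, inhibitors, adaptors and ligands. In the Kindlin-2 pair, 9 of these other genes had a region, of which 2 were past 2-fold upward and 0 downward, where 16.2% of all regions were higher and 9.27% lower. One was Itgb1bp1, which encodes ICAP-1, an inhibitor that competes for the tail of the Itgb1 product. It held 5 and 21, a ratio of 4.2 (interval 1.30 to 15.5), and like Itgb8 it lies on chromosome 12. Subtracting the chromosome median left Itgb1bp1 a log2 ratio of 1.33, and subtracting the local median left 0.90, within 2-fold. The other was the actin crosslinker gene Actn1 on the same chromosome, with 8 and 21. Its log2 ratio of 1.29 became 0.74 with the chromosome centred and 1.05 with the local median subtracted. Neither gene was thus past 2-fold under both kinds of centring. Rap1b, a small GTPase that promotes talin recruitment, was within 2-fold with 12 and 16. The adaptor genes Zyx, Ilk, Bcar1, Lims1, Vcl and Ptk2 were within 2-fold, with log2 ratios from -0.62 to 0.00.

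In the Rela pair 40 of the 94 genes in all these lists had a region, and 6 were at least 2-fold lower at some region and 3 higher. That was 6 lower and 3 higher of 46 regions (13% and 6.52%), where 21% of all regions were lower and 22.4% higher. Among regions assigned to a named gene within 2500 bp of its start, 11.7% were lower and 11.2% higher. Itga1 and Itga7 were picked for being lower, so nothing is read from the lower count. Besides Itga1, Itga7 and Itgae, the lower ones were Src, Col1a2 and Tgfb2. A region 4689 bp from the start of Src, a kinase of integrin signalling, held 85 and 30, and stayed past 2-fold when centred (-1.31 by chromosome, -1.22 locally). The second Col1a2 region, at a collagen gene, held 40 and 18, and was within 2-fold once centred (-0.94 by chromosome, -0.30 locally). Tgfb2, one of the TGF-beta ligand genes, held 64 and 18, a log2 ratio of -1.77, which was -1.72 with the chromosome centred but -0.64, within 2-fold, with the local median subtracted. The higher ones were the adaptor genes Pxn (3 and 10) and Crk, and Dok1, which encodes an adaptor that competes with talin (24 and 51). Pxn and Dok1 stayed past 2-fold under both kinds of centring. The higher Crk region (19 and 42) came within 2-fold under both (0.91 by chromosome, 0.59 locally), and the other Crk region held 31 and 20, a log2 ratio of -0.61. The median over the 46 regions of these lists was 0.00, as over all regions.

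Markers of other cell types bear on these genes because kindlin-1 is mainly epithelial and the Itga7 subunit is best known from muscle. In the Kindlin-2 table none of 15 epithelial, 12 muscle and 15 fibroblast markers had a region, and 1 of 10 endothelial and leukocyte markers did (Ptprc, 10 and 27). No epithelial marker could therefore be set beside Fermt1, and the fibroblast label could not be checked there. In the Rela table, regions were listed for 10 of 15 fibroblast markers, whose signal summed to 620 with Rela and 580 without it. Of these genes 3 were at least 2-fold lower at some region, namely Fbln2 (68 and 14, 137 and 55), Col6a1 (38 and 12) and Dpt (23 and 8). S100a4 (46 and 133) and Fbln1 (12 and 29) were higher, and 5 were within 2-fold, among them Pdgfra (58 and 57) and Vim (110 and 108). With chromosomes centred 3 were lower and 1 higher, where 18.9% of all regions were lower and 21.2% higher. Of 12 muscle markers 2 had regions there, Tagln and Acta2. All their regions were within 2-fold as deposited, but Acta2 (143 and 76) was past 2-fold lower when centred (-1.15 by chromosome, -1.07 locally). Their summed signal was 206 in wild-type and 122 in knockout cells. For the defining muscle markers Myod1, Myog and Des no region was listed. Of 15 epithelial markers 5 had regions, of which 3 were lower and 2 higher as deposited and 3 lower and 0 higher with chromosomes centred. Over all regions 21% were lower and 22.4% higher as deposited, and 18.9% and 21.2% with chromosomes centred. The epithelial sums were 216 and 74, and most of them came from Pax8 (111 and 26) and Krt7 (71 and 12). Those 2 regions lay 4401 and 3336 bp from the starts of Pax8 and Krt7. Krt5 (24 and 10) was also lower, while Krt19 (8 and 19) and Cdh16 (2 and 7) were the higher ones. The Cdh16 ratio of 3.5 had a counting interval of 0.74 to 19.4, which includes no difference. No region was listed for Cdh1 or Epcam. The part of these markers in the Itga7 difference was not tested.

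By the pair of log2 values in the same table, which rests on 2 samples, the gene regions most like that of Fermt1 were at Kif12 (4 and 30), Fam172a (5 and 29) and Hsdl2 (5 and 27). Those most like Itgb8 of the Kindlin-2 pair were at Bach1 (10 and 32), Ndufaf4 (10 and 28) and Ptprc. In the Rela pair Itga1 was nearest to Lrmp (150 and 32), Ido2 (151 and 28) and Cdkn1a (132 and 29). Itga7 had the same values as regions of Ptpn14 and 3830408C21Rik (42 and 9), followed by Pex3 (41 and 9).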

How the data were processed

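Members and lists were chosen with earlier results of these data known. The authors deposited 1 table per knockout with 1 column per genotype, holding a score. Per the labels' table names this is a background-corrected, DESeq-normalized signal, here in whole numbers. The levels of the tables were not compared with each other. Per the submitters' processing notes, reads went through Trimmomatic 0.33, FastQC, Picard 1.136, STAR 2.4.2a, bedtools, DESeq2, deepTools and MACS2 (order and roles unstated), on mm10. Details of Tn5 shift, duplicates and peak calling were not given in the sources used here. A genotype had 2 biological replicates per the design text, and whether or how they were combined in the single column is not stated.

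Regions with a mean of at least 1 entered (5727 and 28332). Log2 ratios are log2((knockout + 1)/(control + 1)), which understates weak regions, and 2-fold means a log2 ratio of at least 1 in size. Chromosome medians, or medians of the 50 nearest regions, were subtracted. The planned named genes were all regions of the integrin and kindlin genes, up to 4 past 2-fold per other list, and the 3 regions most alike in their pair of values. Pelo, Crls1, Trmt6, Rdh5 and the unassigned regions were added by their position after values were seen, as were the marker genes and the genes given as within 2-fold. Gene positions came from RefSeq on GRCm38.p6, where 98.3% and 98.1% of matched genes had a start or end within 1000 bp of the tables.

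Depth was inferred from which low whole values are over- or under-represented. The value of 1 count was 1.36 in Kindlin-2 floxed (97.5% of the deviance explained), 0.683 in Rela wild type (97.9%) and 0.949 in Rela knockout (90.9%). For the other column the best factor explained 8.35%, so 1 was used, the largest single factor at which every whole value occurs. Median regions then held 11.8, 16, 49.8 and 36.9 implied counts in Kindlin-2 floxed, Kindlin-2 knockout, Rela wild type and Rela knockout. Exact (Clopper-Pearson) 95% intervals of ratios from these counts cover counting error only, not cultures, replicates or background correction. Nuclear signal summed to 134996 and 114217 in the Kindlin-2 pair, and 1386832 and 1458609 in the Rela pair. With its 2 mitochondrial regions the Kindlin-2 pair summed to 1655317 (floxed) and 827408 (knockout), so most of its signal was mitochondrial. The Rela sums held no mitochondrial signal. Scripts (Python 3.11.15, numpy 2.4.6, scipy 1.17.1, statsmodels 0.14.6) were tested on simulated data.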

Additional observations from a re-analysis of the deposited data

How the results depend on the processing

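No paired analysis was possible because each genotype had 1 column, and no replicate could be left out. Under the alternatives run (pseudocounts of 0.5 and 5, chromosome or local centring, quantile and loess scaling) log2 ratios kept their sign and ranged from 1.87 to 2.66 for Fermt1, 0.993 to 1.63 for Itgb8 and 0.08 to 0.21 for Itga1 in the Kindlin-2 pair. In the Rela pair they ranged from -2.33 to -1.47 for Itga1, -2.21 to -1.52 for Itga7 and 0.22 to 0.45 for Itgb8. Of the 4 regions past 2-fold as deposited, only Itgb8 came within it, under chromosome centring. Rela-pair Itga1 left its counting interval (-2.86 to -1.73 in log2) when centred on the chromosome (-1.47) or on nearby regions (-1.71). Subtracting those negative medians (-0.79 and -0.55) moved Itga1 past the upper end. Of 12 integrin pathway genes with a region in the Kindlin-2 pair, 4 were higher as deposited, 2 with chromosomes centred and 3 with local centring. Of all regions, 16.2% were higher as deposited and 14.7% with chromosomes centred. Fermt1 and Itgb8, picked on this contrast, are among the 4. Regions at least 2-fold higher in the Kindlin-2 pair numbered 925 as deposited, 543 with a pseudocount of 5, 573 after quantile scaling, 450 after loess scaling and 387 among regions with a mean of at least 10. Those lower numbered 531, and 335 with a pseudocount of 5. The cause was not tested for the scalings. A pseudocount of 0.5 gives the same 2-fold calls as 1, since values are whole numbers. Depth limits the Kindlin-2 pair most: Fermt1 rests on about 2.94 implied counts in floxed cells.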

Other observations

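An unassigned region 22.4 kb beyond the end of Itga7 on chromosome 10 was present in both tables. In the Rela table (128980641 to 128981526) it held 281 (wild type) and 30 (knockout), a log2 ratio of -3.19, and -2.60 with the chromosome centred. In the Kindlin-2 table (128980691 to 128981395) it held 34 (floxed) and 100 (knockout), a log2 ratio of 1.53, and 1.85 centred. It was thus lower without Rela and higher without Kindlin-2, past 2-fold in each pair. These regions were singled out after their values were seen, and nothing in the tables ties them to Itga7.

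Start sites differ between annotations for 3 of the 4 genes. The start given in the tables lies 130 bp from the RefSeq start for Fermt1, 392 bp for Itga7 and 526 bp for Itgb8, and coincides with it for Itga1. The Itgb8 region of the Kindlin-2 table lies wholly upstream of the RefSeq start, by 177 bp, whereas its centre is 148 bp downstream of the start in the table. An unassigned region 70.3 kb from Itgb8 held 7 (wild type) and 34 (knockout) in the Rela pair (log2 ratio 2.13), whereas the Itgb8 promoter region there was within 2-fold.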
